A study of Mus musculus with 12 samples.

Results

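The cytosolic ribosomal protein genes were followed in mouse medulloblastoma, a cerebellar tumour, sampled at end point. Their products build the large and the small subunit of the ribosome that translates messenger RNA in the cytoplasm. Members were all gene names of the deposited table that begin with Rpl, Rps or Rplp and a number, together with Rpsa. S6 kinase genes, Rps19bp1 and names marked as pseudogenes were left out. This gave 83 of the 15672 genes. By the classes used here 43 belong to the large subunit, 31 to the small subunit and 3 to the P stalk, and 6 are paralogs or extra copies. The rule reads gene names and no expression value, though it was set with earlier results of these data known, and 82 of the 83 passed the filter on low genes.

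Tumours of the SG group carried fSMO-M2, a conditional allele of mutant Smoothened that keeps the Hedgehog pathway switched on, with hGFAPcre, a Cre recombinase driven by the human GFAP promoter. Tumours of the YSGr group carried fYap1, a conditional allele of the Hippo pathway coactivator Yap1, in addition to both of these. The series calls YSGr rescued without saying what was rescued. Both groups therefore share fSMO-M2 and hGFAPcre, and neither age nor the number of animals is given in the sources used here. There were 3 libraries each of SG males (1 to 3), SG females (4 to 6), YSGr males (7 to 9) and YSGr females (10 to 12). Nothing states that libraries came from separate animals, so the p-values reflect variation among these libraries that could be technical.

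Ribosomal protein genes are among the most actively transcribed genes of dividing cells, and their products are needed in equal numbers. Most of their messages begin with a C followed by a run of pyrimidines, the terminal oligopyrimidine or TOP motif, through which mTOR signalling controls their translation. Several members also have roles outside the ribosome. Rpl5 and Rpl11 bind Mdm2 when ribosome assembly is disturbed, and Rps6 is the classic substrate of the S6 kinases.

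Transcript starts of the members that the results turn on are shown here because their letters mark 2 features of the gene set, the TOP motif and the shared sequence of copied genes. Each line runs 5′ to 3′ on the gene's strand, from 40 bases before to 20 bases from the RefSeq start onwards (assembly GRCm38.p6). Capitals mark the pyrimidine run that begins at the start base when that base is a pyrimidine.
Rps27 (chr3:90213629-90213688, minus strand): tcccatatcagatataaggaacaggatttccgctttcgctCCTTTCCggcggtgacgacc
Rps27rt (chr9:114982720-114982779, minus strand): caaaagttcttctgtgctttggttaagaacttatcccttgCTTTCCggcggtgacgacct
Rps10 (chr17:27635225-27635284, minus strand): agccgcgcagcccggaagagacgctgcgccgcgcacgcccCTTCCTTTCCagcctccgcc
Rps6 (chr4:86857348-86857407, minus strand): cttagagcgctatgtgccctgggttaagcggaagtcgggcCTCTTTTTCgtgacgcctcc
Rpl35a (chr16:33056442-33056501, plus strand): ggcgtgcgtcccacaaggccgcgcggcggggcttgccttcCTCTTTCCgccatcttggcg
Rps28 (chr17:33824543-33824602, minus strand): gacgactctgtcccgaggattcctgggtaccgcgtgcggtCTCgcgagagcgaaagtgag
Rps2 (chr17:24720023-24720082, plus strand): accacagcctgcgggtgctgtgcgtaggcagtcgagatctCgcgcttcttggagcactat
Rplp0 (chr5:115559427-115559486, plus strand): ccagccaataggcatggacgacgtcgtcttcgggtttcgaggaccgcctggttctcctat

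RefSeq gave promoters for 63 of the 83 members. A start at C followed by at least 4 further pyrimidines was present in 14 of the 63 (22.2%), against 323 of 11045 genes (2.92%). Such a run opens Rps27, Rps27rt, Rps10, Rps6 and 1 of 3 listed starts of Rpl35a above. It does not open Rps28, Rps2 or Rplp0 at the listed start, and a start listed some bases away from the one in use would hide it. From 250 bases before to 50 after the start, on both strands, CCGGAA, the core that ETS factors bind, was present in 55.6% of the members and 29.4% of all genes. AAGATGG, part of the YY1 motif, was present in 15.9% and 7.97%, and TGACG, part of the cAMP response element, in 50.8% and 34.2%. TATAAA was present in 11.1% of the members and 8.67% of all genes. These matches describe letters in the window and no binding was measured.

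The 83 genes lie on 19 chromosomes, with 14 on chromosome 7 and 4 on the X chromosome. Nearly all of them have copies in the genome that look like the message. A near-identical copy, with at least 95% identity over at least 80% of the coding sequence, was found for 78 of the 83 in GENCODE M21, with a median of 5 copies. Rpl21 had 57, Rps2 26, Rpl35a 14, Rpl30 12 and Rplp0 3. Rps27rt has 1 exon, and its 252 coding bases were 100% identical to those of Rps27, which has 4 exons. How the authors' counting divided reads between such copies is not given in the sources used here, so values of single members are uncertain by that amount.

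Estimated reads ranged from 8854785 to 9478689 per library. Yap1, the gene targeted in YSGr, had 7 to 33 estimated reads in the YSGr libraries and 174 to 253 in the SG libraries. All 14 markers of granule neuron progenitors, the cells from which these tumours arise, were measured, with a summed level of 4588 to 7520 CPM. The labels fix no batch.

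Ribosomal protein messages were lower in YSGr males than in any other group. Their mean log2 CPM over the 82 tested genes was 7.94, 7.66 and 8.09 in YSGr males 7, 8 and 9. It was 8.32, 8.37 and 8.77 in YSGr females 10, 11 and 12, and 8.27, 8.43 and 8.42 in SG females 4, 5 and 6. In SG males 1, 2 and 3 it was 8.32, 9.28 and 8.39. SG male 2 therefore stood above the other 11 libraries, and the YSGr males stood below all 9 others without overlap. The group means were 7.89 ± 0.22 (SD, n = 3) in YSGr males, 8.48 ± 0.25 in YSGr females, 8.38 ± 0.09 in SG females and 8.66 ± 0.53 in SG males.

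The same order held for the share of all reads that the members took. It was 2.77, 2.24 and 3.10% in the 3 YSGr males. The other libraries except SG male 2 took 3.51 to 4.65%, and SG male 2 took 6.43%. Wilson 95% intervals of these shares reached at most 0.0156 percentage points to either side, which covers counting error only.

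**Figure D1:**
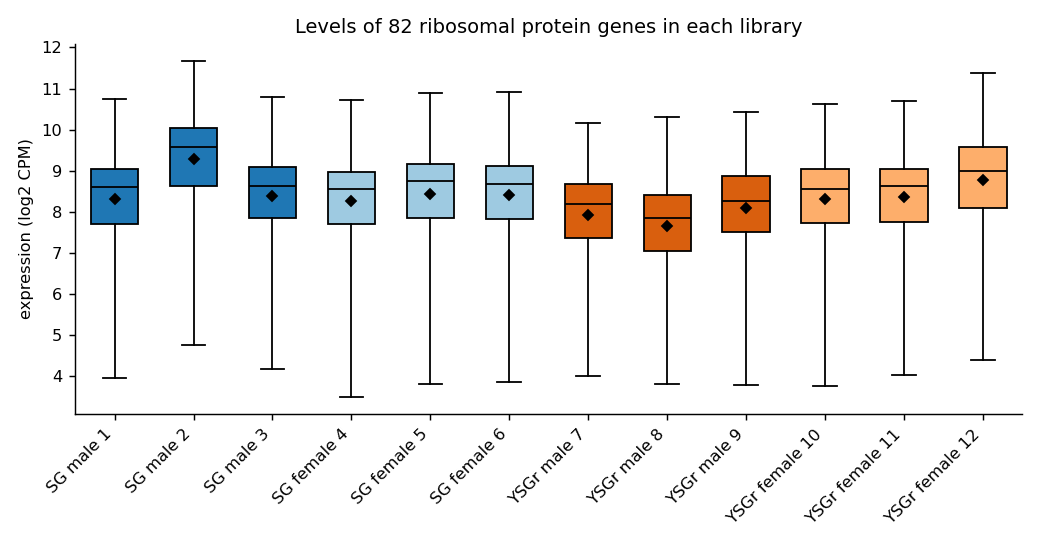
Log2 CPM of the 82 tested ribosomal protein genes (vertical axis) in each of the 12 libraries (horizontal axis). Boxes span the quartiles with the median as a line, whiskers reach the lowest and the highest gene, and diamonds are means. The mean of SG male 2 sits at 9.28 and those of the YSGr males at 7.66 to 8.09.

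SG male 2 also differed from the other SG libraries by transcript length. All genes with a length were cut into 5 equal classes, and the median difference of SG male 2 from the mean of the other 5 SG libraries was 0.57 (log2) in the shortest and −0.59 in the longest class. It was 0.92 for the ribosomal protein genes, which have short transcripts. For 659 other genes with transcripts of 554 to 992 bases, the range between the members' quartiles, it was 0.73, and for the 78 mitochondrial ribosomal protein genes, which serve the separate ribosome of mitochondria, it was 0.68. In YSGr male 8 and YSGr female 12 the members stood farther from genes of like length. In YSGr male 8 the median difference from the other YSGr libraries was −0.64 for the members and −0.19 for genes of like length. In YSGr female 12 these values were 0.67 and 0.18. The comparisons below are therefore given with and without SG male 2, and its part in them was not tested beyond that.

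**Figure D2:**
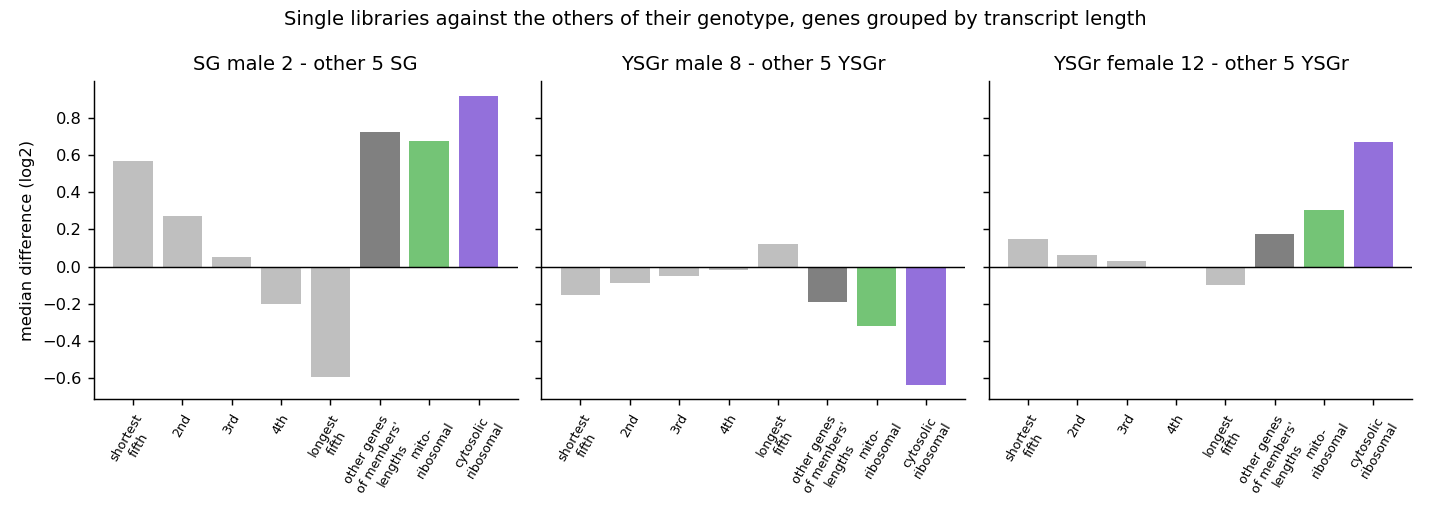
Median log2 difference (vertical axis) between 1 library and the mean of the other 5 of its genotype, for genes grouped by transcript length (light grey bars, 5 classes from shortest to longest), other genes of the members' lengths (dark grey), mitochondrial (green) and cytosolic (purple) ribosomal protein genes. In SG male 2 the light grey bars fall from 0.57 to −0.59, while in YSGr male 8 and YSGr female 12 they stay between −0.15 and 0.15 and the dark grey bars are at −0.19 and 0.18.

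Differences between the groups were tested gene by gene with limma on the deposited log2 CPM. A gene was called at a Benjamini-Hochberg adjusted p under 0.05 over all 14147 genes tested. Averaged over the sexes, 4 of the 82 members fell in YSGr and 0 rose. Over all genes 5.27% fell and 6.16% rose, so the share of members that fell was near the background. At an unadjusted p under 0.05, 43 were lower and 2 higher, where 13.8% and 14.8% of all genes were. The median log2 fold change of the members was −0.37, against −0.0048 over all genes. The 4 were Rplp0, Rps27rt, Rps28 and Rps10. When SG male 2 was left out, the same 4 and Rpl8 fell and Rps2 rose, where 6.58% of all genes fell and 6.56% rose. The median was then −0.21, and 31 were lower at an unadjusted p under 0.05 (2172 of 14124 genes). The count of 43 was 16 without YSGr male 8 (12.1% of all genes), 18 without YSGr female 10 (1543 of 14108 genes) and 24 without SG female 6 (1480 of 14126). It was 26 without SG female 5 (1493 of 14121) or YSGr female 11 (1815 of 14089), and 61 without SG male 1 (1976 of 14117). The median was between −0.46 and −0.31 in the runs that gave these counts.

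Rplp0 encodes the protein on which the P stalk is built, the flexible arm that recruits translation factors, and is often used as a reference gene. It lies on chromosome 5 from 115559467 to 115563727 (GENCODE M21, mm10). Per kilobase of transcript it had the highest level of all members in SG (1349 CPM per kilobase as the median library). Its level was 10.72, 11.62 and 10.79 log2 CPM in SG males and 10.73, 10.88 and 10.91 in SG females. It was 9.84, 9.67 and 10.13 in YSGr males and 10.24, 10.41 and 10.71 in YSGr females. All 6 YSGr libraries lay below all 6 SG libraries, and Rplp0 was the only member for which this held (2.96% of all genes were lower without overlap). The log2 fold change was −0.78 ± 0.16 (SE), with a limma adjusted p of 0.00894. It was −0.63 without SG male 2 (adjusted p = 0.00566).

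The other stalk genes, Rplp1 and Rplp2, encode the acidic proteins that bind to it in pairs. Their averaged differences were −0.44 and −0.55 (−0.25 and −0.32 without SG male 2), and neither was called.

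Rps27rt, the intronless copy of Rps27, had 6.33, 6.78 and 6.44 log2 CPM in SG males and 5.85, 6.35 and 6.43 in SG females. It had 5.30, 4.93 and 5.57 in YSGr males and 5.73, 6.01 and 6.40 in YSGr females. YSGr males lay below all other libraries, while the female groups overlapped. The averaged log2 fold change was −0.71 ± 0.16 (SE, limma adjusted p = 0.0120), and −0.64 without SG male 2 (adjusted p = 0.0232). Rps27 itself, which shares its coding sequence, had a difference of −0.49 (−0.34 without SG male 2) and was not called.

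Rps28, a small-subunit protein near the site where messenger RNA leaves the ribosome, had 7.19, 8.11 and 7.27 log2 CPM in SG males and 7.17, 7.37 and 7.33 in SG females. It had 6.55, 6.39 and 6.78 in YSGr males and 6.97, 7.11 and 7.29 in YSGr females. The log2 fold change was −0.56 ± 0.15 (SE, limma adjusted p = 0.0291). Rps10, which is ubiquitinated when ribosomes collide, differed by −0.53 (limma adjusted p = 0.0460). Leaving out SG male 2 gave −0.41 for Rps28 (limma adjusted p = 0.0130) and −0.40 for Rps10 (adjusted p = 0.0484). Both genes were lowest in YSGr males, and YSGr females overlapped with SG. Rps28 lost the call when any of 6 libraries was left out and Rps10 when any of 7 was, whereas Rplp0 and Rps27rt kept it in all 12 leave-outs.

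**Figure D3:**
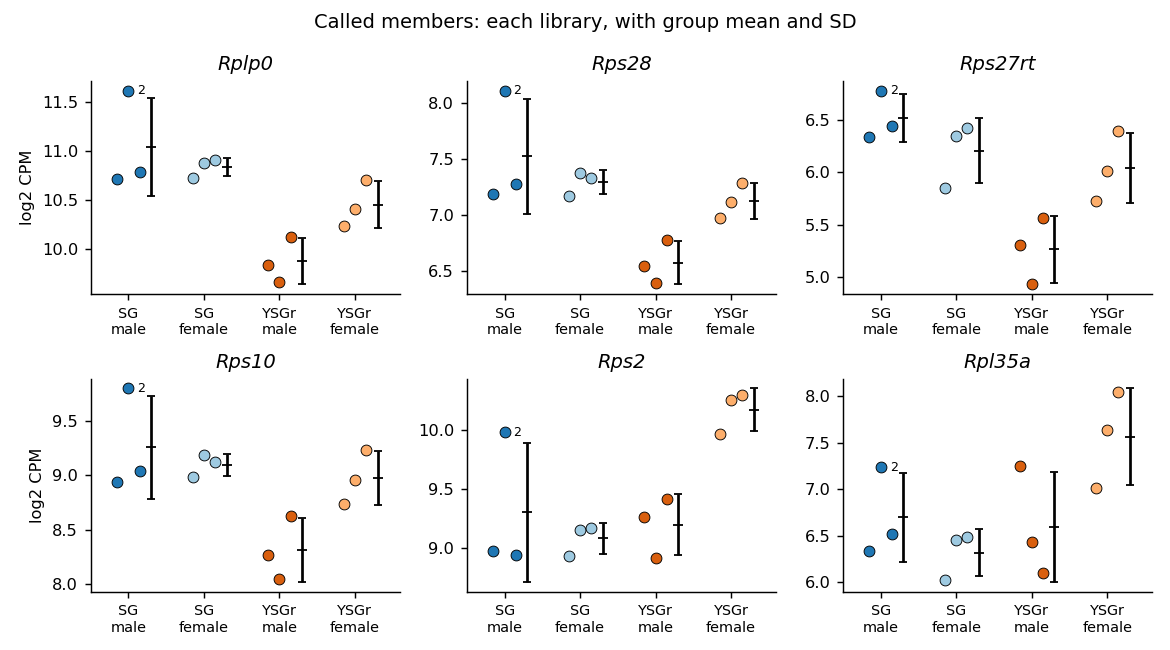
Log2 CPM (vertical axes, each with its own range) of 6 ribosomal protein genes in every library, by group (horizontal axis). Points are libraries, bars are the group mean and SD (n = 3), and 2 marks SG male 2. Rplp0 lies between 9.67 and 10.71 in YSGr and between 10.72 and 11.62 in SG, and Rps2 is at 9.96 to 10.30 in YSGr females.

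In males all 82 members had a negative log2 fold change, with a median of −0.80 against −0.01 over all genes. Of the 82, 36 fell and 0 rose, where 3.42% of all genes fell and 4.43% rose. Unadjusted, 74 were lower at p under 0.05 (15.1% of all genes). In 73 members every YSGr male lay below every SG male, which held for 18.0% of all genes.

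By subunit, 20 of 43 large-subunit genes fell in males, with a median of −0.77, and 14 of 31 small-subunit genes, with a median of −0.84. Of the 3 stalk genes and the 5 tested paralogs, 1 each fell. When SG male 2 was left out, 1 large-subunit and 1 small-subunit gene fell, with medians of −0.48 and −0.51, and 1 stalk gene and 1 paralog. The 14 members with a TOP-like start had a median of −0.82 (−0.48 without SG male 2) and the 48 tested members with another listed start −0.79 (−0.50).

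The largest male differences without overlap ran from −1.25 to −0.95. Among them were those of Rps27rt, Rplp0, Rps14, Rpl13a, Rpl12, Rpl35, Rpl39, Rpl41, Rpl36, Rps27 and Rps28. Rpl12 forms the base of the stalk, Rpl35 and Rpl39 line or surround the exit tunnel of the nascent chain, and Rpl41 is the shortest of all ribosomal proteins. Rpl13a also belongs to the GAIT complex that silences inflammatory messages. Its level was 9.96, 11.15 and 10.14 log2 CPM in SG males and 9.41, 9.19 and 9.60 in YSGr males, a log2 fold change of −1.02 ± 0.27 (SE, limma adjusted p = 0.0420). SG male 2 was the highest library for it, and the other SG males still lay above all YSGr males. The difference was −0.65 without SG male 2 and was then not called (limma adjusted p = 0.0895).

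The number of calls in males rested on single libraries. Without SG male 2, 4 members fell (Rps27rt, Rplp0, Rps28 and Rpl27), where 1.11% of all genes fell, and 3 of the 82 had a positive difference. The median was −0.48, and 63 members were lower at an unadjusted p under 0.05 (12.3% of all genes). Without YSGr male 8, 1 member was called, Rps27rt, the only member called under each of the 12 leave-outs. The count was 5 without YSGr male 7 and 15 without YSGr male 9, with medians of −0.81 and −0.91. How many of all genes fell without YSGr male 7, 8 or 9 is not given here. Those counts therefore cannot be set against the background. The count was 17 without YSGr female 10 (333 of 14108 genes fell) and 19 without SG male 3 (241 of 14131). Without SG female 4, 5 or 6 it was 5 each time, where 214 of 14106, 196 of 14121 and 198 of 14126 genes fell. Other leave-outs gave a higher count. It was 50 without SG male 1 (399 of 14117 genes) and 38 without YSGr female 11 (669 of 14089) or YSGr female 12 (536 of 14127). Leaving out a female library leaves the male differences as they are and changes only the estimated spread and the adjustment. With SG female 4, 5 or 6 left out the median stayed at −0.80, and 72 members were lower at an unadjusted p under 0.05. Rps27rt differed by −1.12 without SG male 2 (limma adjusted p = 0.0359).

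Cell-type markers also differed between the libraries, not always in those where the members were low. The summed level of the 10 macrophage and monocyte markers was 154 to 208 CPM in SG (154 to 189 without SG male 2). It was 599 to 899 CPM in the males and 437 to 695 in the females of YSGr. The 11 oligodendrocyte lineage markers summed to 11020 CPM in YSGr male 8, the library with the lowest ribosomal protein level, and to 1190 to 3244 in the other 11. Such a sum follows the most abundant genes of a list. Averaged over the sexes, the called genes of this list were all lower in YSGr, where 5.27% of all genes fell. They were Olig1 (−0.68), Olig2 (−0.67) and Cspg4 (−0.54), at −0.60, −0.59 and −0.60 without SG male 2. The 14 granule neuron progenitor markers summed to 6141 to 7520 CPM in SG, and to 7122 to 7520 there without SG male 2. Within YSGr they summed to 6543 to 7484 CPM in females and 4588 to 6343 in males. No marker of these 3 lists was at 0 reads in all libraries. The part of the cell mixture in the difference was not tested. In bulk tissue, fewer cells of a type and less RNA per cell cannot be told apart.

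In females the members lay on both sides of 0. The median log2 fold change was 0.07 against 0.01 over all genes, with 60 members above and 22 below 0. These differences use no SG male and are the same without SG male 2, but the sign of the median rested on YSGr female 12. Without that library it was −0.07, with 26 members above and 56 below 0. Rps2 rose and no member fell, where 1.15% and 1.87% of all genes did, and at an unadjusted p under 0.05 there were 3 higher and 0 lower (7.37% and 7.68% of all genes). In 11 members every YSGr female lay above every SG female (14.0% of all genes), and in Rplp0 every one lay below (13.9% of all genes).

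Rps2, a small-subunit protein at the entry of the messenger RNA channel, lies on chromosome 17 from 24718116 to 24721929. Its level was 8.93, 9.15 and 9.16 log2 CPM in SG females and 9.96, 10.26 and 10.30 in YSGr females. It was 8.97, 9.98 and 8.94 in SG males and 9.26, 8.91 and 9.42 in YSGr males. The female difference was 1.09 ± 0.25 (SE, limma adjusted p = 0.0303), and the male difference −0.10 (adjusted p = 0.800). Without SG male 2 these were 1.09 (adjusted p = 0.00235) and 0.24 (adjusted p = 0.376), so the male value changed sign. The female call was lost in 6 of the 12 leave-outs, with adjusted p up to 0.127.

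Rpl35a, a large-subunit protein whose gene is mutated in some families with Diamond-Blackfan anaemia, had 6.02, 6.45 and 6.48 log2 CPM in SG females and 7.02, 7.64 and 8.05 in YSGr females. In males it had 6.33, 7.23 and 6.52 in SG and 7.25, 6.43 and 6.09 in YSGr. The female groups did not overlap and the male groups did. The female difference was 1.25 ± 0.32 (SE), with a limma adjusted p of 0.0584, which became 0.0360 without SG male 2, when 2 members rose (2.36% of all genes). Rpl30 came next, at 0.61 (adjusted p = 0.292). At the other end were Rplp0 at −0.39, Rplp2 at −0.26 and Rps28 at −0.17, none of them called.

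**Figure D4:**
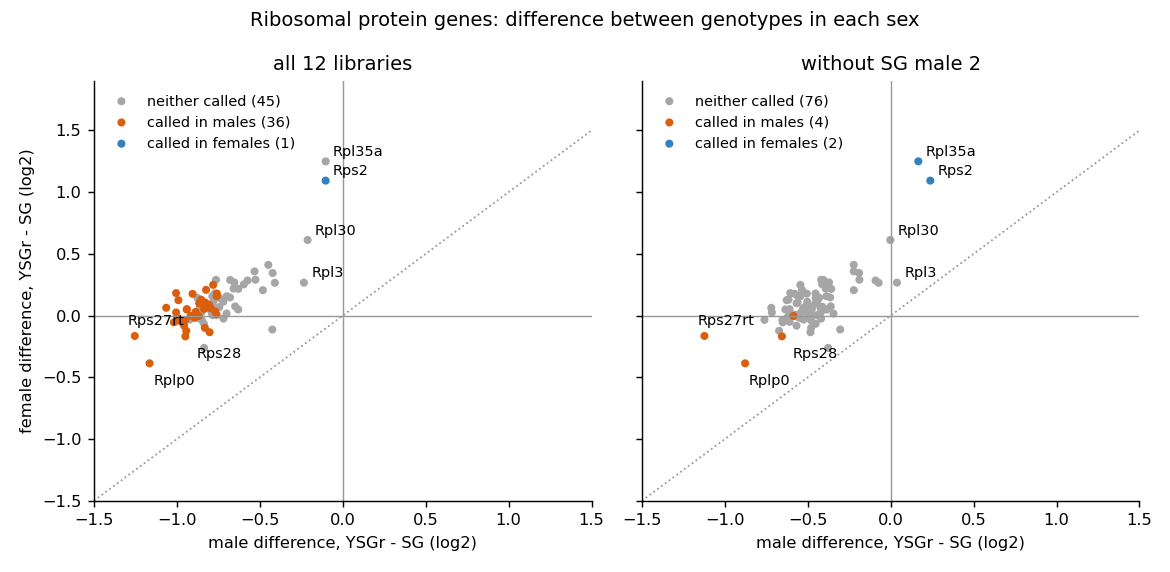
Log2 difference between YSGr and SG in females (vertical axis) against that in males (horizontal axis), 1 point per tested ribosomal protein gene, with all 12 libraries and without SG male 2. Points above the dotted line of equality have the higher value in females, which holds for all 82 in both panels. Colours give the calls at an adjusted p under 0.05, and Rps2 is called in females in both panels.

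The test of the difference between the sexes called no member. The female minus the male difference was positive in 82 of 82 members with a median of 0.88, against 0.01 over all genes, and the smallest limma adjusted p was 0.429. At an unadjusted p under 0.05, 73 were positive and 0 negative, where 5.61% and 5.94% of all genes were. By adjusted p 0.00707% of all genes were called in either direction. Without SG male 2 the median was 0.57, with 60 at an unadjusted p under 0.05 (4.06% of all genes higher) and again none called (0.00708% of all genes). The count of 73 was 33 without YSGr female 12 (3.07% of all genes) and 40 without YSGr male 8 (2.67% of all genes). It was 43 without SG female 4 (404 of 14106 genes). The highest values belonged to Rpl35a (1.35) and Rps2 (1.196), and the lowest to Rpl7l1 (0.31), Rpl3 (0.50) and Rplp2 (0.58).

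Within the genotypes, YSGr females were above YSGr males in 82 of 82 members, with a median difference of 0.58 against 0.02 over all genes. None passed (smallest limma adjusted p = 0.142), where 0.0778% of all genes did in either direction, and 61 had an unadjusted p under 0.05 (7.51% of all genes higher). This count was 13 without YSGr female 12 (3.59% of all genes), 18 without YSGr male 8 (2.88% of all genes) and 78 without SG male 2 (13.4% of all genes). In 72 members the groups did not overlap (11.5% of all genes). The largest differences were those of Rps2 (0.98), Rpl35a (0.97) and Rps14 (0.87), and the smallest those of Rpl22l1 (0.18), Rpl3 (0.25) and Rpl7l1 (0.25). With SG male 2 left out, Rps2 passed (limma adjusted p = 0.0242), as 0.0779% of all genes did in that direction.

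Between SG females and SG males the direction changed when SG male 2 was left out. With it 82 of 82 members were lower in females, with a median of −0.28 and none called, and without it 49 were higher and 33 lower, with a median of 0.02. Of all genes 0.0353% were called with all 12 libraries, and at an unadjusted p under 0.05 there was 1 member lower (0.848% of all genes), Rpl22l1 (−0.58). That count was 0 without SG male 2 (79 of 14124 genes) or SG female 4 (86 of 14106). It was 4 without SG male 3 (263 of 14131 genes) and 14 without SG male 1 (321 of 14117). Rps15 (−0.46) followed, and Rpl7l1 (−0.06), Rps10 (−0.16) and Rps7 (−0.16) were at the other end.

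The members varied together from library to library. Pearson's r between a member and the mean of the others over the 12 libraries had a median of 0.976 and exceeded 0.9 in 73 of 82, as a description, since the genes share libraries and scaling. The median was 0.961 without SG male 2. The lowest were Rpl35a (0.41), Rps2 (0.53), Rpl30 (0.66), Rpl22l1 (0.72) and Rpl3 (0.74).

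Levels were therefore also taken relative to the median member of each library, which removes what all members share. This scale was added after the data had been seen. It sets the members against each other and moves all other genes by the shared difference, so that 47.1% of all genes were called higher in males on it. Averaged over the sexes, 3 members were higher and 1 lower on it (7.15% and 0.778% of all genes). Rps2 was 0.37, 0.41 and 0.31 above the median member in SG males, 0.37, 0.41 and 0.49 in SG females, 1.06, 1.05 and 1.15 in YSGr males and 1.42, 1.63 and 1.30 in YSGr females. The groups did not overlap, and within YSGr every female was above every male. The relative difference was 0.87 ± 0.10 (SE, limma adjusted p = 0.000719), and it was called in 12 of 12 leave-outs.

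Rpl35a (0.95, limma adjusted p = 0.0186) and Rpl30 (0.58, adjusted p = 0.0363) were the other members that rose against the median member. Rpl35a stayed called in 9 and Rpl30 in 5 of 12 leave-outs. Rplp0 fell, by 0.40 (adjusted p = 0.0272), and stayed called in 6 of 12. In SG it was 2.05 to 2.23 above the median member and in YSGr 1.64 to 1.86. In males Rpl3 rose as well (0.59, adjusted p = 0.0312). Its relative difference was 0.54 without SG male 2 (limma adjusted p = 0.0557) and ran from 0.44 to 0.67 over the 12 leave-outs. The call was lost without SG male 2, YSGr male 8 or YSGr male 9. Rpl3 shapes the centre of peptide bond formation.

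The number of near-identical copies was set beside this scale. The median change relative to the median member was 0.03 in the 17 members with 10 or more copies, which include Rps2, Rpl35a and Rpl30. It was 0.02 with 5 to 9 copies, −0.02 with 1 to 4 and −0.02 with none. Whether reads from copies contribute to the values of Rps2, Rpl35a and Rpl30 was not tested.

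**Figure D5:**
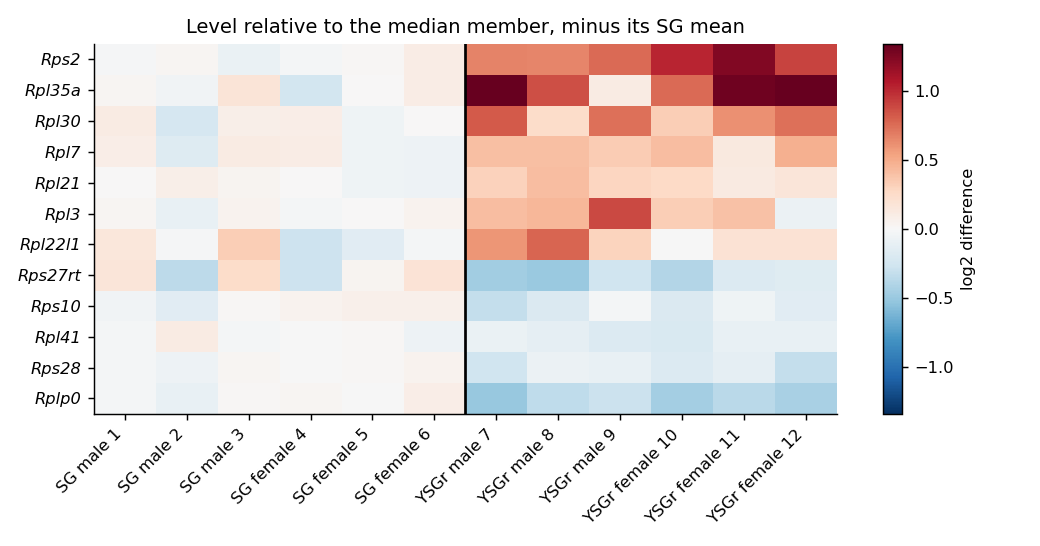
Level of 12 ribosomal protein genes (rows) relative to the median member of the same library, minus the gene's SG mean (colour, log2), in the 12 libraries (columns, SG left and YSGr right of the line). Rps2 is above its SG mean in all 6 YSGr libraries and Rplp0 below it in all 6, while Rpl35a is near its SG mean in YSGr male 9.

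Further members are known for roles outside the ribosome or in disease. The Mdm2-binding Rpl5 and Rpl11 differed by −0.76 and −0.74 in males and by 0.16 and 0.07 in females, and Rpl5 was called in males. Rps6 had 9.49, 10.46 and 9.57 log2 CPM in SG males and 9.07, 8.79 and 9.31 in YSGr males, a difference of −0.79 that did not pass. Rps19, the gene most often mutated in Diamond-Blackfan anaemia, differed by −0.88 in males and was called. Rps27a, which is made as a fusion with ubiquitin, was called in males at −0.87. Rpsa, also known as the laminin receptor, differed by −0.74 and Rpl29, a heparin-binding protein, by −0.76, without passing. In females these 5 genes differed by 0.01 (Rps6), 0.01 (Rps19), 0.10 (Rps27a), 0.14 (Rpsa) and 0.29 (Rpl29). None of the 7 was called in males without SG male 2, when Rps19 differed by −0.58 (limma adjusted p = 0.0745), Rps27a by −0.57 (adjusted p = 0.0858) and Rpl5 by −0.56 (adjusted p = 0.124). Rps6, Rpsa, Rpl11 and Rpl29 then differed by −0.48, −0.43, −0.42 and −0.42.

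The 4 X-linked members, Rpl10, Rpl36a, Rpl39 and Rps4x, had medians close to those of the autosomal ones. Their median difference was −0.81 in males, 0.04 in females, and 0.59 between YSGr females and YSGr males. The 78 autosomal members had −0.80, 0.07 and 0.58. Rpl39 (−0.99) and Rps4x (−0.84) were called in males, and Rpl36a (−0.78) and Rpl10 (−0.70) were not. Neither call held without SG male 2, when Rpl39 differed by −0.76 (limma adjusted p = 0.107) and Rps4x by −0.53 (adjusted p = 0.115). The male medians were then −0.49 for the X-linked and −0.48 for the autosomal members.

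Paralogs were far below their partners per kilobase of transcript, as the median SG library. Rpl22 had 483 and Rpl22l1 27.0 CPM per kilobase, Rps27 921 and the p53-inducible Rps27l 45.9, Rpl36a 269 and Rpl36al 92.4, and Rpl7 432 and Rpl7l1 30.9. Rpl3l, the form of striated muscle, was the member that failed the filter, with 0 to 3 estimated reads per library. The paralogs Rpl22l1 (−0.42), Rps27l (−0.66), Rpl36al (−0.41) and Rpl7l1 (−0.42) were not called in males, nor were their partners Rpl22 (−0.72), Rpl36a (−0.78) and Rpl7 (−0.45), whereas Rps27 (−0.95) was. Leaving out SG male 2 gave −0.19, −0.39, −0.07 and −0.30 for the 4 paralogs and −0.50, −0.44, −0.22 and −0.65 for Rpl22, Rpl36a, Rpl7 and Rps27, and none of the 8 was called.

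Other gene classes of protein synthesis had negative medians in males too, nearer to 0 than that of the members. Their counts stand against the 3.42% of all genes that fell in males. Of 24 genes for elongation factors and other TOP messages 7 fell and 0 rose, with a median of −0.60. Among them were Rack1, a scaffold on the small subunit (−0.98 ± 0.23, SE, limma adjusted p = 0.0301), and the elongation factor gene Eef1b2 (−0.87 ± 0.22, adjusted p = 0.0376). Of 40 genes of ribosome biogenesis and RNA polymerase I, 3 fell and 0 rose (median −0.39), namely Fbl, the methyltransferase fibrillarin (−0.79), Pes1 (−0.62) and nucleolin, Ncl (−0.52). Of 25 initiation factors 2 fell, Eif3i (−0.74) and Eif3b (−0.68). Of 78 mitochondrial ribosomal protein genes 1 fell, Mrpl55 (−0.73), with a median of −0.37, a share below that of all genes. Without SG male 2 no gene of these 4 lists was called in males (1.11% of all genes fell), and the medians were −0.41, −0.27, −0.21 and −0.16 in the order given.

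In females no gene of the TOP, initiation factor, biogenesis or mitochondrial ribosomal lists was called, with medians of −0.01, −0.02, −0.13 and 0.12. When SG male 2 was left out, 2 biogenesis genes fell and 1 mitochondrial ribosomal gene rose, where 452 and 333 of 14124 genes did. Of 24 genes of the mTOR pathway and S6 kinases 1 rose in females, where 1.15% of all genes did. It was Rps6ka2 (0.72, limma adjusted p = 0.0298), which encodes a kinase downstream of ERK. Without SG male 2 it stayed called, and Larp1 of this list fell in females (−0.37, limma adjusted p = 0.0403). Larp1 then also fell in the average over the sexes (−0.25, limma adjusted p = 0.0352). With all 12 libraries averaged over the sexes, Rps6ka2 rose by 0.58 and Eif4ebp2, a repressor of cap-dependent translation, fell by 0.29. In that average 6 of 40 biogenesis genes fell (median −0.25), among them Bysl (−0.47), Tcof1 (−0.43), Mybbp1a (−0.39) and Pes1 (−0.39), which act in the nucleolus, where 5.27% of all genes fell. In the same average 2 TOP messages fell, Eif3f (−0.53) and Pabpc1 (−0.43), and Eif4a2 rose (0.38). When SG male 2 was left out, 6 biogenesis genes (median −0.19) and 4 TOP messages fell in the average, where 6.58% of all genes did.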

How the data were processed

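The authors deposited log2 CPM for 15672 genes in 12 libraries of tumour RNA. Per the submitters' processing notes, they used Trimmomatic 0.33, RSEM 1.2.12, Bowtie2, Picard 1.95, edgeR 3.30.3 and build mm10; these sources do not give the annotation, the use of strand or the filter on low genes. Estimated reads were recovered from the step of the turned-back values (whole within 0.02 reads for 91.4 to 92.3% of genes). No libraries were identical (0 pairs). The members, gene lists, tests and naming rule were chosen with earlier results of these data known. The rule named stalk, extraribosomal, X-linked and paralog genes, called members (the 12 largest without overlap where over 24), the 3 extremes of each comparison and the 5 least correlated members; results of 1 gene are not reported here.

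Differences were tested with limma 3.58.1 (R 4.3.3) on the deposited values: 4 group means, eBayes with trend, two-sided, Benjamini-Hochberg adjustment over 14147 genes with log2 CPM above 0 in at least 3 libraries. The deposited values include a prior count, which understates changes of low genes. The fit was tested on simulated data in which genes vary independently, so that test does not cover variation shared by the members. Copies were found with blastn 2.17.0. Alternatives covered scaling, filters, library weights, a model without sex and leaving out each library.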

Additional observations from a re-analysis of the deposited data

Results flagged for a closer look

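SG male 2 lay far above the other SG libraries for the ribosomal protein genes. The gap to the nearest of the other 5, divided by the range of the 6, was 0.843 for the mean log2 CPM of the members and 0.868 for their share of reads, both above Dixon's 95% critical value for 6 samples. Of the 82 members, 78 passed that value in SG male 2. Among the named genes it was 0.853 for Rpl8, 0.791 for Rplp0, 0.710 for Rps10, 0.777 for Rps2 and 0.788 for Rps28. In YSGr, 3 members, Rpl29, Rpl36al and Rpl7l1, passed it through a high value in YSGr female 12. Chance flags about 1 in 20 groups, and members share libraries, so their flags are not independent.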

How the results depend on the processing

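With 3 libraries per group the number of calls was sensitive to single libraries. Leaving out 1 library at a time gave 2 to 11 called members in the averaged comparison, 0 to 2 in females and 1 to 50 in males. Between YSGr females and males it gave 0 to 1. The counts over all genes moved as well. In the average 11 members fell without YSGr female 12 (891 of 14127 genes) and 2 without SG female 4 (498 of 14106). In males 50 fell without SG male 1 (399 of 14117 genes), and in females 2 rose without SG male 2 (333 of 14124). The median log2 fold change ran from −0.98 to −0.48 in males and from −0.07 to 0.15 in females. Relative to the median member the counts of members in these 4 comparisons were 1 to 7, 0 to 2, 0 to 4 and 0 to 1. In the average 5 rose and 2 fell on that scale without SG male 2, where 1195 and 258 of 14124 genes did. In males 3 rose and 1 fell on it without YSGr female 12 (6509 and 45 of 14127 genes). None was called in males without YSGr male 8, where 122 of 14060 genes rose and 11 fell. Library weights gave SG male 2 a weight of 0.10 and YSGr male 8 0.28. With them 50 members were called in the averaged comparison (48 lower, 2 higher) and 13 in females (7 higher, 6 lower). The count was 53 in males (all lower), 5 for the difference between the sexes and 34 between YSGr females and males. The median was −0.44 in males, −0.04 in females and 0.41 for the difference between the sexes. How many of all genes were called with library weights is not given here. The counts with library weights therefore cannot be set against the background. Without a filter on low genes 0 members were called in females, where 156 of 15672 genes rose and 238 fell. In males 5 members fell, where 331 of 15672 genes did. A model without sex called 1 member in the averaged comparison, as lower, where 604 of 14147 genes fell. The cause of these changes was not tested. On the log2 CPM scale the male median stayed negative under every alternative run. Relative to the median member, 8 of the 36 members called in males were above 0 (0.02 to 0.06), namely Rpl19, Rpl31, Rpl4, Rpl5, Rpl7a, Rpl8, Rps18 and Rps9; without SG male 2 this held for 4 (0.0082 to 0.053), namely Rpl14, Rpl31, Rpl8 and Rps9. No paired analysis was possible because the libraries are numbered 1 to 12 without repeats.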
